A study of Mus musculus with 24 samples.

Results

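Cytosolic sulfotransferases were followed here across mouse liver tumour samples that differed in Foxa1 and Foxa2, in sex and in carcinogen treatment. The group was the 9 genes Sult1e1, Sult2a2, Sult2a4, Sult1a1, Sult1b1, Sult1c2, Sult1d1, Sult3a1 and Sult5a1, of 28482 gene names on the array, and they were read by 12 of its 41174 probes. A probe belonged to the group when the array's own name for it, or the current symbol of its transcript, was one of the 9. The members were selected on their measured log2 signal over the same 6 groups of samples, with Sult1e1 set against the others. Their levels and differences are therefore a description, and no test was made on them. All 9 genes passed the filter on dim probes, and 9 of the 12 probes were well above background on all 24 arrays.

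Cytosolic sulfotransferases move a sulfonate group from the donor PAPS onto a hydroxyl or amino group of a small molecule, which usually makes it more soluble in water and, for a steroid hormone, unable to bind its receptor. Sult1e1 acts on estradiol and estrone, the Sult2a enzymes on hydroxysteroids and bile acids, the Sult1a, Sult1b, Sult1c and Sult1d enzymes mainly on phenols, thyroid hormones and catecholamines, and Sult3a1 on amines. Sulfatases remove the group again. In the mouse liver, genes of the Sult2a and Sult3a families are known for higher levels in females than in males.

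The design had 6 groups of 4 arrays. Wild-type (WT) and Foxa1/Foxa2 double-knockout (dKO) females were studied untreated. WT females, dKO females, WT males and dKO males were studied after treatment with DEN, an alkylating liver carcinogen given at 20 mg/kg at 14 to 15 days of age. The treatment went on with TCPOBOP, an activator of the nuclear receptor CAR that promotes liver tumours, at 3 mg/kg in 8 injections, 1 every 2 weeks. No untreated males were among the samples, so sex was compared in treated mice only. The labels called the tissue of every sample liver tumour, that of untreated mice included. The sources used here do not give the strain, the age at sampling, the deleted alleles or the Cre driver, nor whether the 4 replicates were separate animals, so the p-values below measure only the spread between these samples.

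All values are log2 signals relative to the 75th percentile of the array's signals, which was 435.0 to 959.98 intensity units. The labels could be checked against expression: Foxa1 and Foxa2 were lower in every dKO array than in every WT array, and male-linked and female-linked genes matched the labelled sex in 24 of 24 arrays. Hepatocyte genes were bright in every sample, with a mean over 14 hepatocyte markers of 6.65 to 7.55 on 23 arrays. Treated dKO female replicate 2 stood apart with a hepatocyte mean of 5.22. Treated WT male replicate 1 had the lowest Sult2a2, Sult2a4 and Sult3a1 levels of its group at a hepatocyte mean of 7.12. These 2 arrays shared a slide and had the highest (959.98) and the lowest (435.0) 75th percentile of all arrays, in that order. Of their spots 67.6% and 52.7% were well above background. The part of these array properties in their values was not tested. Most of the main results that rest on either array are given with and without it. In bulk tissue, fewer cells of a type and less RNA per cell cannot be told apart. The arrays lay on 6 slides of 4 positions. The 4 treated WT male arrays were all at the first position of their slide and the 4 treated dKO female arrays all at the fourth, so for these groups position and group can hardly be told apart.

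The sequences behind 3 of the Sult2a readings are shown because 1 of them, the dimmer Sult2a2 probe, gave another order of the groups than the rest. Sult2a genes are closely related neighbours on chromosome 7, and a probe of 60 bases may bind the transcripts of several. In the probes below the capitals mark the stretch over which the dimmer Sult2a2 probe and the brighter Sult2a4 probe align.
Sult2a2 brighter probe: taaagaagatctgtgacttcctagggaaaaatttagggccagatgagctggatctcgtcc
Sult2a2 dimmer probe: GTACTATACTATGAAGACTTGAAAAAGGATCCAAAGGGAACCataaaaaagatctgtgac
Sult2a4 brighter probe: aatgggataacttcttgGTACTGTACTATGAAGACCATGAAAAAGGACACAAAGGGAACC
The capitals span 42 bases of the Sult2a2 probe and 43 of the Sult2a4 probe, with 38 equal bases, 4 different ones and 1 gap. The array files place the brighter Sult2a2 probe at chr7:14364609-14364668 and the dimmer one at chr7:14247879-14250418, a span of 2540 bases, both in build mm9 on the plus strand. The brighter Sult2a4 probe lies at chr7:14495026-14495049 and the dimmer one at chr7:14574854-14574913, both on the minus strand. The transcripts that the files list for the brighter Sult2a2 probe include Sult2a1 and Sult2a6, so this probe can bind several Sult2a transcripts. For the dimmer Sult2a2 probe Sult2a2 alone is listed. The Sult1e1 probe lies at chr5:88005187-88005246 on the minus strand, close to those of Sult1d1 at chr5:87984658-87984717 and Sult1b1 at chr5:87943946-87944005. Sult3a1 is read on chromosome 10, Sult1a1 on chromosome 7, Sult1c2 on chromosome 17 and Sult5a1 on chromosome 8.

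The 250 bases before the start of 3 members are shown because Foxa1 and Foxa2 are forkhead factors and these members had the largest differences between group means among those with a promoter. They come from RefSeq (GRCm38.p6), which had a promoter for 8 of the 9 members. Capitals mark the forkhead words TGTTTAC or TGTTTGC, or their forms TATTTAC or TATTTGC, and the nuclear receptor half-site AGGTCA, on either strand.
Sult1e1, chr5:87591612-87591861, minus strand: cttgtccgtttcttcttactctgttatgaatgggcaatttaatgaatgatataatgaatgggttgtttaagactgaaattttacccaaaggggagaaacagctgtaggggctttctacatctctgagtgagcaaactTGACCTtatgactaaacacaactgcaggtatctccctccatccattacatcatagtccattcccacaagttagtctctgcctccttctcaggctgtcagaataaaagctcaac
Sult2a4, chr7:13989589-13989838, minus strand: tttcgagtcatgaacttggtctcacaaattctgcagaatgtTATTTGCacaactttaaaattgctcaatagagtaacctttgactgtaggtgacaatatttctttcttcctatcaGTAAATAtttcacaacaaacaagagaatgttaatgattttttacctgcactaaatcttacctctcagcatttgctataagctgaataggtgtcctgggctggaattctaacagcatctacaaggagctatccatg
Sult3a1, chr10:33857472-33857721, plus strand: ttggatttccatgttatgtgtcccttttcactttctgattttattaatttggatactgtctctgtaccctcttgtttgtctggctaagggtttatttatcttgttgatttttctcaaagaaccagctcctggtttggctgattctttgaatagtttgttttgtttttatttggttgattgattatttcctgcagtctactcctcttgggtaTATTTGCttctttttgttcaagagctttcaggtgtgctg
The Sult1e1 stretch held no forkhead word and 1 nuclear receptor half-site, 113 to 108 bases before the start. The Sult2a4 stretch held 2 forkhead words, at 209 to 203 and 135 to 129 bases before the start, and the Sult3a1 stretch held 1 at 39 to 33 bases. A forkhead word was found in 5 of 16 Sult promoters (13 genes, some with several starts) and in 11.9% of 32851 promoters of this length, and the half-site in 3 of 16 and in 14.0%. Of 2 further motifs, the HNF1 half-site GTTAAT was found in 4 of 16 Sult promoters and 6.43% of all, and the STAT motif TTCNNNGAA in 1 of 16 and 7.02%. A match is only a run of letters in this window.

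Sult1e1, the estrogen sulfotransferase, was low in a single group. In untreated WT females the 4 arrays read -1.75, -0.65, -2.17 and -1.26, a mean of -1.46 ± 0.65 (SD, n = 4). In untreated dKO females they read 6.94, 6.49, 5.92 and 6.46, a mean of 6.45 ± 0.42 (SD, n = 4), and in treated WT females 6.43, 5.91, 6.11 and 6.10, a mean of 6.14 ± 0.22 (SD, n = 4). Every array of both groups was thus far above every untreated WT array, and all 24 arrays were well above background for this probe. The difference between dKO and WT in untreated females was 7.91 ± 0.68 (SE), a 241-fold higher signal. The difference between treated and untreated WT females was 7.60 ± 0.68 (SE), or 194-fold. Within the 2 slides that held both genotypes of untreated females the difference was 8.09 and 8.25, and within the 3 slides that held treated and untreated WT females it was 7.36 to 8.18. These comparisons share the untreated WT females.

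In the other 5 groups Sult1e1 was high on all arrays but 1. Treated WT males read 4.96, 6.20, 6.13 and 5.93, and treated dKO males 4.99, 5.61, 5.39 and 5.45. Treated dKO females read 6.59, 2.19, 7.10 and 6.02, where the value 2.19 belongs to replicate 2, the array that stood apart. Ordered by mean, the groups ran from untreated dKO females (6.45) through treated WT females (6.14), treated WT males (5.81 ± 0.57), treated dKO females (5.48 ± 2.23) and treated dKO males (5.36 ± 0.26) to untreated WT females, and each neighbouring pair overlapped except the last. In treated mice dKO minus WT was -0.66 ± 0.68 (SE) in females and -0.44 ± 0.68 (SE) in males. Without replicate 2 the female value was 0.43. Without WT male replicate 1 the male value was -0.72 and every dKO male array lay below every WT one. Within the 3 slides that held treated males of both genotypes it was -1.14 to -0.53. In dKO females the treated minus untreated difference was -0.98 ± 0.68 (SE), and 0.12 without replicate 2. Male minus female in treated dKO mice was -0.11 ± 0.68 (SE), but without replicate 2 it was -1.21 and every female array lay above every male one. Within the 2 slides that held both sexes it was -1.71 and -0.98. The means of untreated dKO females and of the 4 treated groups thus lay between 5.36 and 6.45. The genotype difference of treated females minus that of untreated females was -8.58 ± 0.96 (SE), and -7.48 without both arrays that stood apart.

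**Figure D1:**
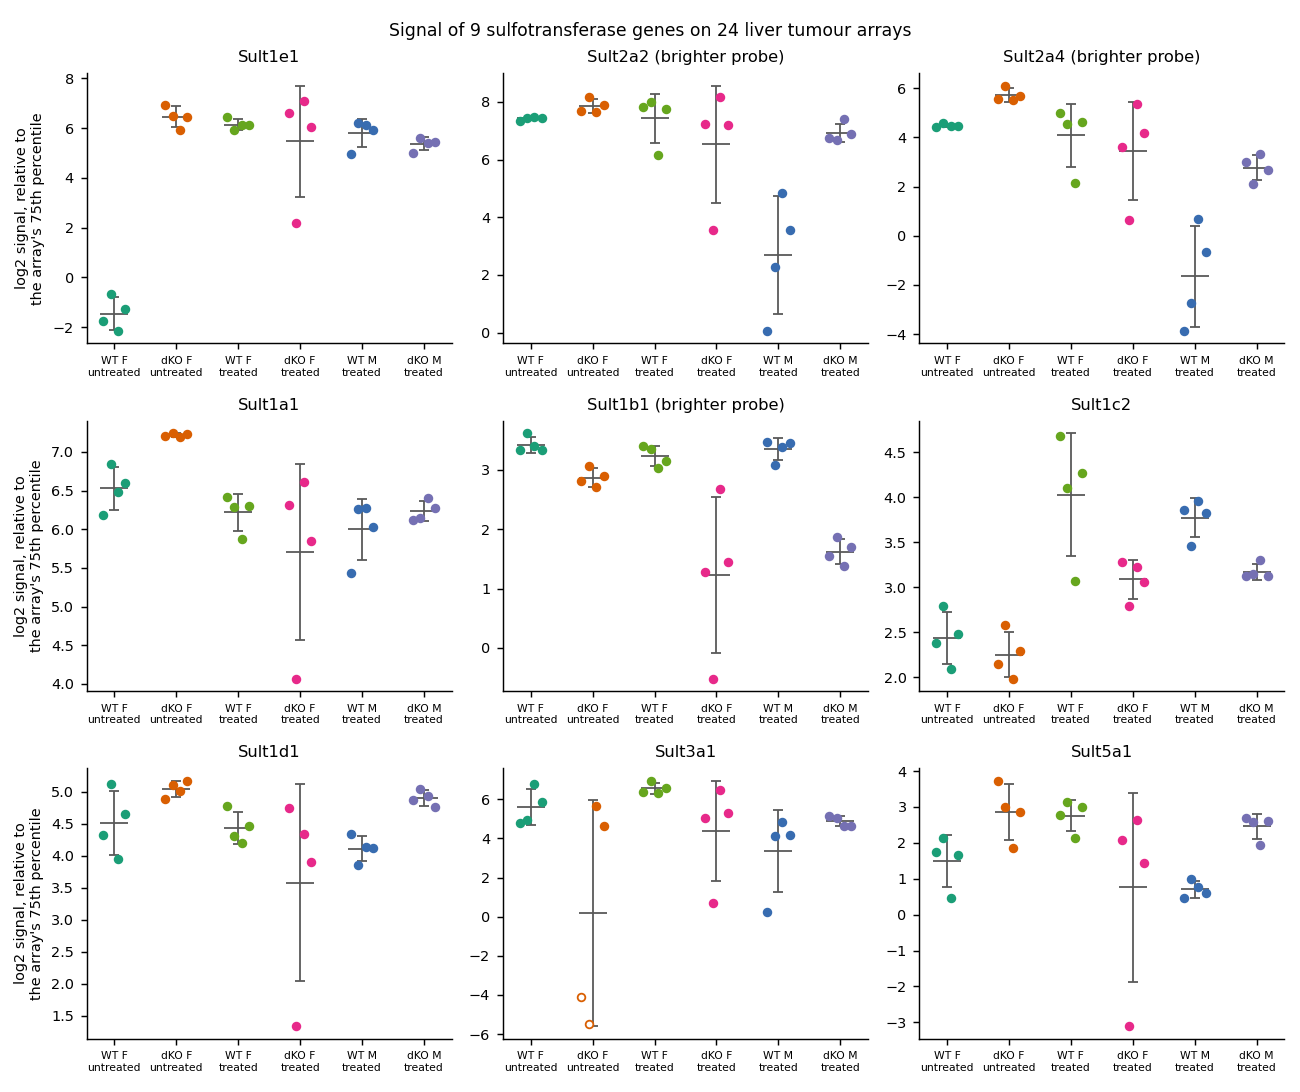
Log2 signal relative to the array's 75th percentile (y axis) of the 9 sulfotransferase genes in 6 groups (x axis; WT wild type, dKO Foxa1/Foxa2 double knockout, F female, M male). Each point is 1 array, open where not well above background, and bars show mean and SD (n = 4). Each panel has its own y axis. Sult1e1 is low in untreated WT females only, and Sult2a2 and Sult2a4 have their lowest means in treated WT males.

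On their brighter probes the hydroxysteroid sulfotransferases Sult2a2 and Sult2a4 followed another order, with treated WT males as the low group. On the brighter Sult2a2 probe, treated WT males read 0.05, 2.27, 4.86 and 3.56, a mean of 2.69 ± 2.05 (SD, n = 4). Treated WT females read 7.82, 7.99, 6.15 and 7.74, and treated dKO males 6.75, 6.68, 7.39 and 6.87, with means of 7.43 ± 0.85 and 6.92 ± 0.32 (SD, n = 4). No treated WT male array reached any array of those 2 groups. The male minus female difference was -4.74 ± 0.84 (SE) in treated WT mice, a signal 26.7-fold lower in males, and 0.39 ± 0.84 (SE) in treated dKO mice. In treated males dKO minus WT was 4.24 ± 0.84 (SE), or 18.9-fold higher.

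On the brighter Sult2a4 probe, treated WT males read -3.88, -2.73, 0.69 and -0.67, and treated dKO males 2.99, 2.09, 3.31 and 2.69. Treated WT females read 5.0, 4.54, 2.17 and 4.63. The WT males lay below every array of both groups. Male minus female was -5.73 ± 0.88 (SE) in treated WT mice, a signal 53.1-fold lower in males, and -0.68 ± 0.88 (SE) in treated dKO mice. Treated dKO females read 3.63, 0.64, 5.34 and 4.19, so the sexes overlapped through replicate 2 alone, and without it the difference was -1.62 with every male array below. In treated males dKO minus WT was 4.41 ± 0.88 (SE), or 21.3-fold higher. The dimmer Sult2a4 probe gave -5.40 ± 0.91 (SE) for sex in treated WT mice and 4.63 ± 0.91 (SE) for genotype in treated males, or -4.27 and 3.5 without WT male replicate 1, and was well above background on 3 of the 4 WT male arrays. Both genes were lowest in treated WT male replicate 1. Without it the sex difference of treated WT mice was -3.86 for Sult2a2 and -4.99 for Sult2a4, and the genotype difference of males 3.36 and 3.67, with the same groups low.

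Within the 2 slides that held treated WT arrays of both sexes, the Sult2a2 difference was -6.10 and -2.88 and that of Sult2a4 -6.05 and -3.94. Within the 3 slides with treated males of both genotypes, dKO minus WT ranged from 1.90 to 4.40 for Sult2a2 and from 2.30 to 4.81 for Sult2a4. Each of these within-slide values thus had the direction of the pooled one. In treated dKO mice, 2 slides gave -0.77 and -0.54 for the Sult2a2 sex difference, against 0.39 pooled and -0.60 without dKO female replicate 2. For Sult2a4 they gave -2.04 and -1.54. With array position as a term the sex difference of treated WT mice was -5.22 for Sult2a2 and -6.42 for Sult2a4.

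In untreated females both brighter Sult2a probes read higher in dKO arrays. The brighter Sult2a2 probe read 7.36, 7.45, 7.48 and 7.43 in WT and 7.69, 8.18, 7.65 and 7.91 in dKO arrays, and the brighter Sult2a4 probe 4.44, 4.57, 4.45 and 4.48 in WT and 5.54, 6.11, 5.51 and 5.70 in dKO arrays. The genotypes did not overlap on either probe, at 0.43 ± 0.84 (SE) and 1.23 ± 0.88 (SE). With slide as a fixed block the values were 1.35 and 2.38, and with slide as a random block 0.63 and 1.49. The SE comes from the spread of all 6 groups, which treated WT males and treated dKO females widen. Treatment left the WT female means close, at -0.0042 ± 0.84 (SE) for Sult2a2 and -0.40 ± 0.88 (SE) for Sult2a4. In dKO females, treated minus untreated was -1.32 ± 0.84 (SE) for Sult2a2 and -2.27 ± 0.88 (SE) for Sult2a4, and -0.33 and -1.33 without replicate 2. The genotype difference in treated males exceeded that in treated females by 5.13 ± 1.18 (SE) for Sult2a2 and 5.05 ± 1.24 (SE) for Sult2a4. Without both arrays that stood apart it did so by 3.26 and 3.37, from 3.36 in males and 0.10 in females for Sult2a2 and 3.67 and 0.30 for Sult2a4.

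The dimmer Sult2a2 probe did not follow the other 3 Sult2a probes in dKO mice. In untreated females it read 1.37, -0.09, 0.17 and 0.57 in WT and -3.90, -1.11, -3.79 and -2.93 in dKO arrays, so that dKO minus WT was -3.44 ± 1.06 (SE) where the brighter probe gave 0.43. In treated males it read -6.19, -4.66, -1.35 and -3.08 in WT and -2.91, -4.42, -2.35 and -3.67 in dKO arrays, which overlap. Treated dKO females read -4.06, -6.90, -0.94 and -2.25 against 2.46, 1.76, 0.23 and 2.19 in WT, a difference of -5.20 ± 1.06 (SE), or -4.07 without replicate 2. On this probe all 3 dKO groups were therefore low, next to treated WT males, and only WT females were high. It was well above background on 3 of 4 arrays in treated WT males and in both groups of dKO females. The statement that Sult2a2 was higher in dKO males and in untreated dKO females rests on the brighter probe, which several Sult2a transcripts can bind. The dimmer probe, for which Sult2a2 alone is listed, overlapped between genotypes in treated males and was lower in untreated dKO females. Which Sult2a transcripts each probe read was not tested.

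**Figure D2:**
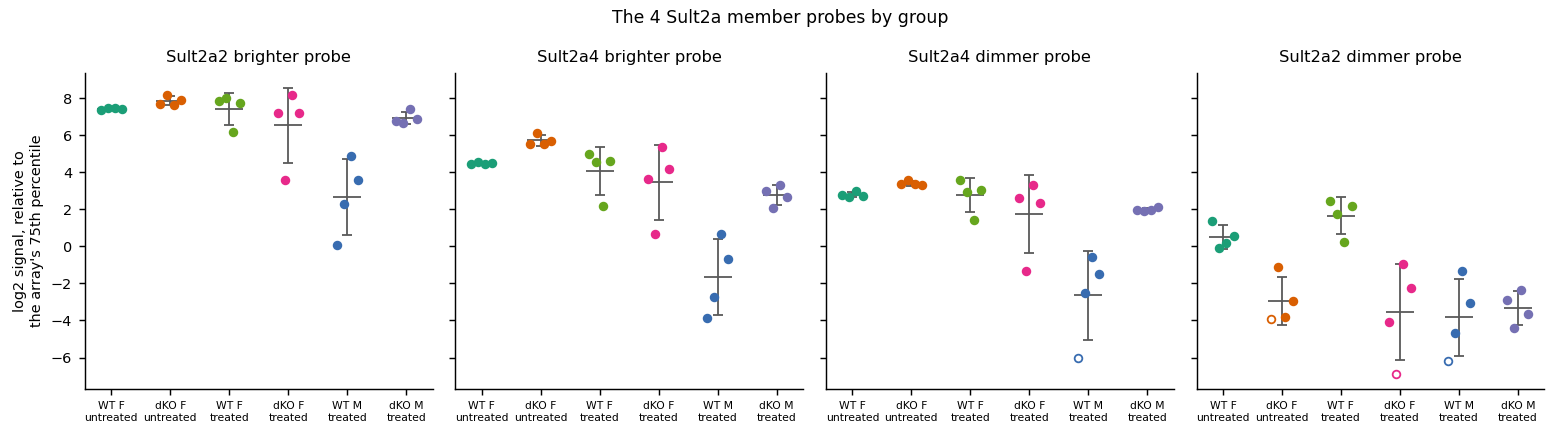
Log2 signal relative to the array's 75th percentile (y axis, shared) of the 4 Sult2a member probes in the 6 groups (x axis). Points are arrays, open where not well above background, and bars show mean and SD (n = 4). On 3 probes treated dKO males lie well above treated WT males, while on the dimmer Sult2a2 probe their means are -3.34 and -3.82.

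Sult3a1, the amine sulfotransferase, split a group. Untreated dKO females read -4.11, -5.47, 5.68 and 4.62, where replicates 1 and 2 were not well above background. Untreated WT females read 4.81, 4.94, 6.76 and 5.88, and treated WT females 6.39, 6.96, 6.30 and 6.58. The dKO minus WT difference of untreated females was -5.42 ± 1.85 (SE), which takes in 2 arrays at background and is therefore no measured size, and the groups overlapped. Within the 2 slides that held both genotypes it was -10.3 and -1.08. In treated mice WT males read 0.26, 4.12, 4.84 and 4.19 and lay below all WT females, at -3.20 ± 1.85 (SE), or -2.17 without WT male replicate 1. Treated dKO males read 5.14, 5.06, 4.65 and 4.66, and dKO minus WT in males was 1.52 ± 1.85 (SE), 0.49 without WT male replicate 1 and -1.31 with array position as a term. Treated dKO females read 5.03, 0.68, 6.5 and 5.30, with the low value again in replicate 2. Their difference from treated WT females was -2.18 ± 1.85 (SE), -0.94 without replicate 2 and -5.15 with array position as a term.

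Sult3a2, a neighbour of Sult3a1 that is not among the 9, repeated the split on its own probe. Its untreated dKO arrays read -6.11, -7.68, 3.09 and 1.90, low in replicates 1 and 2. Over the 24 arrays the levels of both genes had a Pearson r of 0.93, given as a description because both come from the same samples. In limma's fit the adjusted p of the 7 Sult3a2 differences ranged from 0.18 to 0.89.

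**Figure D3:**
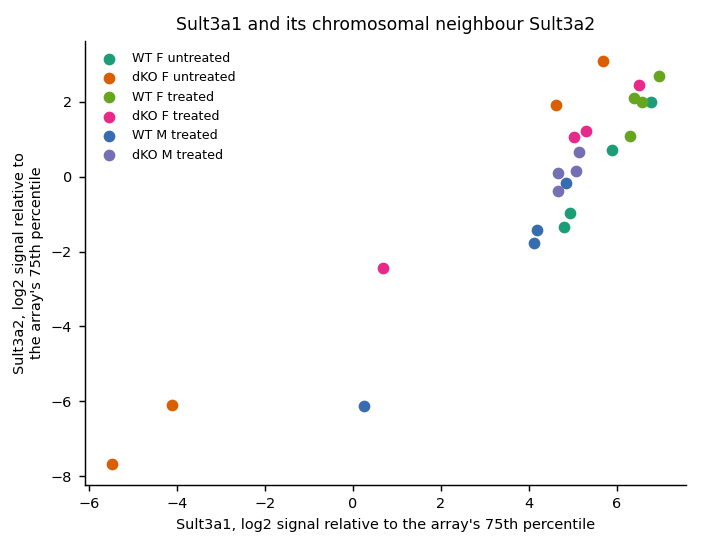
Log2 signal of Sult3a1 (x axis) against Sult3a2 (y axis), both relative to the array's 75th percentile, 1 point per array (24 arrays), coloured by group. Untreated dKO females fall into a low and a high pair of arrays on both genes.

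Sult5a1 was also low in treated WT males, which read 0.45, 1.0, 0.78 and 0.61. Treated WT females read 2.77, 3.13, 2.15 and 2.99, and treated dKO males 2.70, 2.59, 1.95 and 2.60. Neither group reached the WT male range. Male minus female in treated WT mice was -2.05 ± 0.80 (SE) and dKO minus WT in treated males 1.75 ± 0.80 (SE). Treated dKO females read 2.09, -3.11, 2.63 and 1.43. Their difference from treated WT females was -2.0 ± 0.80 (SE), and -0.71 without replicate 2. In untreated females Sult5a1 read 1.74, 2.15, 0.47 and 1.67 in WT and 3.73, 2.99, 1.85 and 2.87 in dKO arrays, overlapping at 1.35 ± 0.80 (SE).

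Sult1b1, which acts on thyroid hormones and phenols, was lower in dKO than in WT arrays in each of the 3 settings without overlap. Its brighter probe read 3.33 to 3.62 in WT and 2.71 to 3.07 in dKO untreated females, 3.03 to 3.4 and -0.52 to 2.67 in treated females, and 3.09 to 3.48 and 1.38 to 1.86 in treated males. The differences were -0.55, -2.01 and -1.73 ± 0.38 (SE), and the dimmer probe gave -0.78, -2.23 and -1.92 ± 0.44 (SE). Without replicate 2 of the treated dKO females the value for treated females was -1.43. The 2 probes of Sult1b1 thus had the same order of genotypes throughout, and its neighbours Sult1d1 and Sult1e1 did not share it.

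Sult1c2 followed treatment. It read 2.38, 2.80, 2.09 and 2.48 in untreated and 4.68, 4.10, 3.07 and 4.27 in treated WT females, a difference of 1.59 ± 0.24 (SE). In dKO females it read 2.15, 2.58, 1.99 and 2.29 untreated and 3.28, 2.79, 3.22 and 3.07 treated, a difference of 0.84 ± 0.24 (SE). No treated array overlapped the untreated ones of its genotype. Treated males read 3.46 to 3.96 in WT and 3.12 to 3.31 in dKO arrays, a difference of -0.60 ± 0.24 (SE) that was 0.075 with array position as a term.

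Sult1a1, a phenol sulfotransferase, was highest in untreated dKO females. They read 7.21, 7.24, 7.19 and 7.23, above the 6.18 to 6.85 of untreated WT females by 0.69 ± 0.35 (SE), and the other groups had means of 5.71 to 6.23. Sult1d1, which acts on catecholamines, read 4.75 to 5.04 in treated dKO males and 3.85 to 4.33 in treated WT males, a difference of 0.79 ± 0.46 (SE). Its treated dKO females read 4.75, 1.33, 4.34 and 3.89, so dKO males lay above them by 1.32 ± 0.46 (SE), and by 0.57 without replicate 2. In dKO females, treated minus untreated was -1.51 ± 0.35 (SE) for Sult1a1 and -1.46 ± 0.46 (SE) for Sult1d1, or -0.96 and -0.71 without replicate 2.

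Counted over the 9 members, with the brighter probe standing for a gene, untreated dKO females were above WT without overlap for 4 (Sult1e1, Sult2a2, Sult2a4 and Sult1a1) and below for 1 (Sult1b1), where 22.6% of all 19240 genes did not overlap, 11.2% above and 11.4% below. In treated females 0 were above and 1 below (21.5% of all genes, 11.1% below), and in treated males 4 above (Sult2a2, Sult2a4, Sult1d1 and Sult5a1) and 2 below (Sult1b1 and Sult1c2; 28.6%, 15.6% above and 13.0% below). Treated WT females were above untreated ones for 2 members, Sult1e1 and Sult1c2, and below for 0 (25.6%, 11.1% above and 14.5% below). Treated dKO females were above untreated ones for 1 (Sult1c2) and below for 4 (Sult2a4, Sult1a1, Sult1b1 and Sult1d1; 31.4%, 14.0% above and 17.4% below). Treated WT males lay below females for 4 (Sult2a2, Sult2a4, Sult3a1 and Sult5a1; 14.5%, 6.94% above and 7.58% below), and treated dKO males lay above females for 1 (Sult1d1; 19.5%, 11.8% above and 7.72% below). Without dKO female replicate 2 treated dKO males also lay below females for Sult1e1 and Sult2a4. Without WT male replicate 1 treated dKO males also lay below WT males for Sult1e1, and treated WT males below females for Sult1d1. The rule that picked the members used these levels, so nothing is read from the counts. The median member difference was 0.53, -0.89, 0.79, -0.0042, -1.46, -0.33 and 0.40 in that order, beside -0.04, -0.07, 0.05, -0.06, -0.07, -0.03 and 0.07 over all genes.

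**Figure D4:**
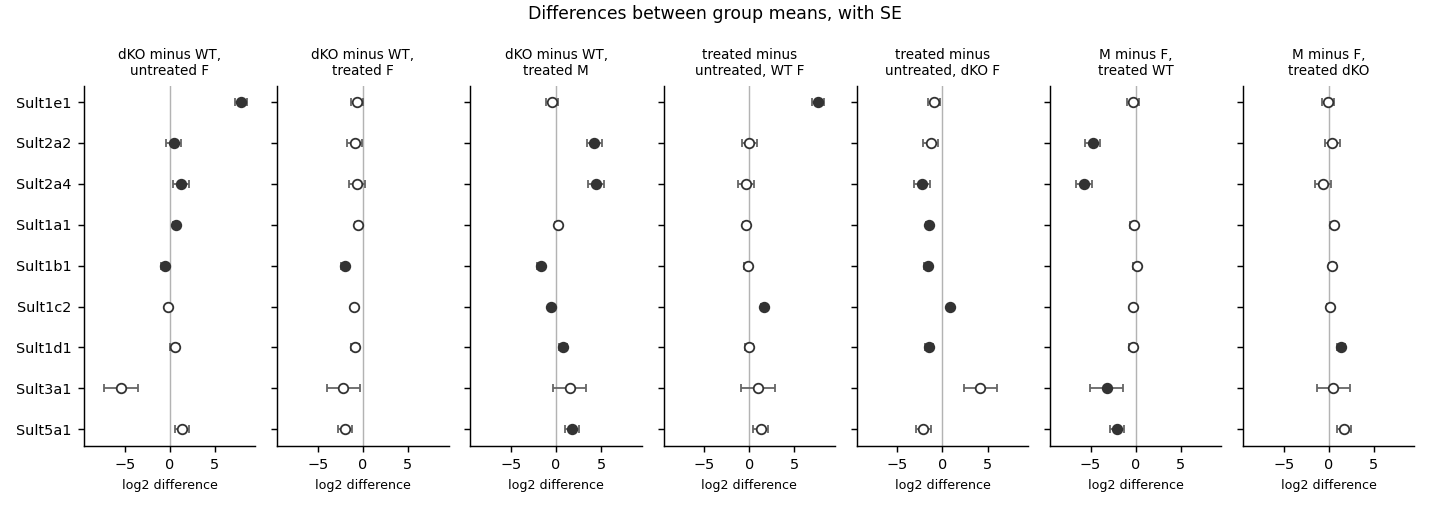
Differences between group means on the log2 scale (x axis, shared) for the 9 members (y axis) in 7 comparisons. Points are filled where the 2 groups of 4 arrays do not overlap, and bars show the SE. Sult1e1 lies near 8 in the genotype difference of untreated females (7.91) and the treatment difference of WT females (7.60). Sult2a2 and Sult2a4 are near 4 in the genotype difference of treated males and at -4.74 and -5.73 in the sex difference of treated WT mice.

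Markers of other cells moved with genotype. The mean of 12 bile duct markers was -3.44 to -2.88 in untreated WT females and -1.66 to -1.04 in untreated dKO females, and -3.70 to -2.72 and -0.81 to -0.30 in treated WT and dKO males. In limma's fit 7 of 12 rose and 1 fell with Foxa loss in untreated females, and 10 of 12 rose in treated females and in treated males. Of all genes 5.19% rose and 4.61% fell with Foxa loss in untreated females, and 13.5% rose in treated females and 14.5% in treated males. The mean of 12 stellate cell and fibroblast markers was 0.27 to 0.34 in untreated WT and 0.68 to 1.39 in untreated dKO females, with 5 of 12 higher and 0 lower. Macrophage markers had means of 1.08 to 2.18 in untreated WT females and 2.57 to 3.02 in untreated dKO females. Of these 10 markers, 5 rose with treatment in WT females, where 8.47% of all genes rose, and 2 with Foxa loss in untreated females. Adipocyte marker means were -6.13 to -4.06 in untreated WT and -4.40 to -0.26 in untreated dKO females, and 2 of 6 rose. Those of T and NK cells were -3.79 to -3.38 and -2.76 to -2.54, and 2 of 7 rose. Those of gut and kidney epithelium were -4.33 to -4.11 and -3.24 to -2.14, and 2 of 5 rose. Endothelial marker means were 0.27 to 0.74 and 0.49 to 0.92, and 0 of 8 rose or fell. The macrophage, stellate cell, endothelial, adipocyte and T and NK cell lists all had their lowest group mean in untreated WT females, where Sult1e1 was low. The other lists did not. The bile duct list was lowest in treated WT males, gut and kidney epithelium in treated WT females and hepatocytes in treated dKO females. Adipocyte means rest partly on signal near background. Adipoq, Plin1 and Retn were well above background on only 8, 4 and 5 arrays of all groups together, and the other adipocyte markers on 17 or more. The part of any of these cell types in the member values was not tested. Of 14 hepatocyte markers 0 rose and 2 fell in untreated dKO females. With Foxa loss in treated females 0 rose and 5 fell, where 16.3% of all genes fell. In treated males 0 of these markers rose or fell. With treatment in dKO females 1 rose and 6 fell, where 16.3% of all genes rose and 21.5% fell.

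The members went together in part. Over the 24 arrays, Sult2a2 and Sult2a4 had a Pearson r of 0.97, Sult1d1 and Sult5a1 of 0.86, and Sult1a1 and Sult1d1 of 0.84, while Sult1e1 had an r of -0.05 with Sult2a2 and 0.43 with Sult1c2. These are descriptions over arrays that share groups. Among the genes most like Sult1e1 over the 24 arrays were DXBay18 (r 0.91), Nrg1 (0.84), Ly6e (0.83) and St3gal1 (0.83). Ly6e had a mean of 2.48 in untreated WT females and 3.79 to 4.56 in the other groups. The least like were Abhd17b (-0.88), Ssh2 (-0.87), Susd4 (-0.86), Hsf4 (-0.85) and the unnamed probe target NAP059333-1 (-0.84), and Susd4 had a mean of -0.17 in untreated WT females and -4.39 to -3.24 elsewhere. Besides Sult2a4, the genes most like Sult2a2 were Slc22a26 (0.91), Hamp2 (0.90), a transcript with no gene name (0.90), B230114P17Rik (0.89) and Gypc (0.88). Slc22a26, an organic anion transporter, averaged 0.66 in treated WT males and 2.90 to 4.12 in the other groups.

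Other Sult genes were not among the members and were tested with limma and Benjamini-Hochberg adjustment over 19240 genes. Members and gene lists were chosen with earlier results of these data known. The p-values here and for the pathway genes below are therefore not independent of that choice. Of 6 other Sult genes on the array, 5 passed the filter, and Sult6b1 was well above background on 1 array. Sult2a8, a bile acid sulfotransferase of the mouse liver, fell with Foxa loss in females. It read 6.62, 6.54, 6.16 and 6.45 in WT and 3.96, 3.97, 4.42 and 4.25 in dKO untreated arrays, a difference of -2.29 ± 0.43 (SE, adjusted p = 1.6e-03). In treated females it read 5.80, 5.37, 5.22 and 5.39 in WT and 0.99, 0.24, 3.31 and 1.94 in dKO arrays, a difference of -3.82 ± 0.43 (SE, adjusted p = 4.2e-06). In treated males the difference was -1.14 (adjusted p = 0.058) and the groups touched. It also fell with treatment in dKO females (-2.53, adjusted p = 2.6e-04) and was higher in treated dKO males than females (2.54, adjusted p = 5.6e-04). Without dKO female replicate 2 these values were -2.07 and 2.08, and the genotype difference of treated females was -3.36. With array position as a term the difference was -3.97 (adjusted p = 0.17) in treated females and -2.72 (adjusted p = 0.094) for treatment in dKO females, while the untreated call and the sex call held.

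Sult4a1, a mainly brain-expressed member with no settled substrate, was highest in treated dKO females. The brighter of its probes read -0.93, 1.43, -1.15 and 0.42 there and -2.59, -2.86, -2.67 and -2.69 in treated WT females, a difference of 2.65 ± 0.39 (SE, adjusted p = 7.2e-05). The increase with treatment in dKO females was 3.12 ± 0.39 (SE, adjusted p = 1.7e-05). It was lower in treated dKO males than females by 2.70 (adjusted p = 1.5e-04). Its highest array was replicate 2, which had the lowest hepatocyte mean, and without it the genotype difference of treated females was 2.15 (adjusted p = 9.4e-05). The treatment difference of dKO females was then 2.63 and the male minus female difference -2.20. With array position as a term the genotype difference of treated females was 2.75 and the call was lost (adjusted p = 0.30). Sult1c1 fell with treatment in dKO females (-1.23, adjusted p = 0.011), and without replicate 2 the value was -0.88 (adjusted p = 0.053). With array position as a term it was -1.32 (adjusted p = 0.27). Sult2b1, the cholesterol sulfotransferase, rose in treated dKO females (1.05, adjusted p = 0.035) near background, on 4 arrays against 1 array of WT above it, and its adjusted p was 0.12 without replicate 2. With array position as a term its difference was 1.36 (adjusted p = 0.56), and with normexp background correction -0.53.

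The sulfation pathway was followed through 67 measured genes of 6 lists. One list holds 24 regulators reported at Sult genes, among them Foxa1 and Foxa2, the deleted genes, whose fall with Foxa loss is set by the design. These made 2 of the 7 falls in untreated females. With Foxa loss 2 rose and 7 fell in untreated females, 7 rose and 22 fell in treated females, and 6 rose and 11 fell in treated males, while 9.80% of all genes (5.19% higher and 4.61% lower), 29.8% (13.5% and 16.3%) and 25.3% (14.5% and 10.8%) were called. With treatment 4 rose and 8 fell in WT females and 12 rose and 30 fell in dKO females, beside 17.2% (8.47% and 8.72%) and 37.8% (16.3% and 21.5%) of all genes. By sex, 2 were higher and 3 lower in treated WT males, and 20 higher and 8 lower in treated dKO males, beside 6.14% (3.27% and 2.86%) and 20.6% (12.5% and 8.10%). With array position in the fit 35 of these 142 calls were kept, and leaving out 1 array at a time kept 979 of 1136. The position fit called 2 pathway genes for genotype in treated females, 2 in treated males and 6 for treatment in dKO females. Most calls given below for these comparisons were therefore lost with array position in the fit. Most sex calls of both genotypes were lost as well, and fewer pathway genes were called for treatment in WT females.

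Of 10 genes of PAPS synthesis and sulfate supply, 2 rose and 2 fell in untreated dKO females. Slc13a4, a sulfate carrier, rose by 1.82 ± 0.40 (SE, adjusted p = 5.8e-03) and Slc26a6, an anion exchanger, by 1.06, while Bpnt1, which clears the spent donor, fell by 0.81 and Slc35b2, a PAPS carrier, by 0.35. Treatment went the other way for Slc13a4, which fell by 1.72 in WT and by 4.18 ± 0.40 (SE, adjusted p = 1.3e-06) in dKO females. Papss2, which makes PAPS, fell by 2.05 with treatment in dKO females (adjusted p = 4.1e-04) and by 1.15 with Foxa loss in treated females. Slc26a1, a sulfate carrier, fell by 2.0 in treated dKO females (adjusted p = 1.3e-04). In treated males 0 of the 10 rose and 2 fell, Slc26a2 by 0.98 and Bpnt2 by 0.37. Among 8 sulfatases and their activators, 2 rose in treated dKO females, and 1 rose and 1 fell in treated dKO males. Arsg, an arylsulfatase, rose with Foxa loss in treated females (1.39) and males (0.76).

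Genes of estrogen metabolism and estrogen receptors were followed as another list. Cyp1b1, an estrogen hydroxylase, rose with Foxa loss in treated females (2.40, adjusted p = 2.7e-05) and males (2.10, adjusted p = 7.6e-05). It also rose with treatment in WT (1.57) and dKO females (3.01). Esr1, the estrogen receptor alpha, fell with treatment by 0.91 in WT and by 1.71 in dKO females and was lower in males than females by 1.01 in WT (adjusted p = 0.014) and 0.81 in dKO mice. Cyp1a2 fell with Foxa loss by 2.15 in treated females and by 1.61 in treated males. Hsd17b7 fell by 1.43 in treated dKO males (adjusted p = 9.0e-06).

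Of 9 transporters of sulfated and other conjugates, 1 fell in untreated dKO females, and 5 fell and 1 rose in treated dKO females. Slco1a1, which takes up organic anions, averaged 2.06 in untreated WT females and was not well above background on any untreated dKO array, at least 138-fold lower (adjusted p = 5.4e-06). In limma's fit Slco1a1 was lower by 7.46 in treated dKO females than in WT (adjusted p = 1.6e-05). That fitted value is no measured size where an array was not well above background. Abcc4, which exports conjugates, rose with treatment in WT (2.34, adjusted p = 9.5e-04) and dKO females (3.08, adjusted p = 3.9e-05) and fell by 3.63 with Foxa loss in treated males (adjusted p = 3.0e-06). Abcc4 thus stood at 3.46 ± 0.25 in treated WT males and -0.17 ± 0.57 in treated dKO males (SD, n = 4).

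Of 24 regulators reported at Sult genes, Foxa1 and Foxa2, the deleted genes, were the only ones called with Foxa loss in untreated females. Cux2, a factor known from female liver, was well above background on all treated WT female arrays and on none of treated WT males, at least 39.0-fold lower in males (adjusted p = 8.1e-07). It was lower in treated dKO males as well, by 4.58 ± 0.58 (SE, adjusted p = 3.9e-05). Prlr, the prolactin receptor, was lower in treated WT males by 1.75 (adjusted p = 2.7e-03). Vdr, the vitamin D receptor, was above background on all treated dKO female and male arrays and on none of the WT ones, at least 4.83-fold and 3.12-fold higher (adjusted p = 1.1e-03 and 4.2e-03). With treatment in dKO females 18 of the 24 fell, the remaining signal of Foxa1 and Foxa2 included, and 6 of 14 hepatocyte markers fell too. Among them were Nr1i3, which encodes CAR, by 2.05 (adjusted p = 5.0e-03) and Ghr, the growth hormone receptor, by 1.56. In WT females 5 fell, with Ppara at -1.10 and Nr1i2 at -1.0. In treated dKO mice 11 of the 24 were higher in males than females (Foxa1, below background in both, among them), Ghr by 1.09, in a comparison where hepatocyte markers also rose in 3 of 14.

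**Figure D5:**
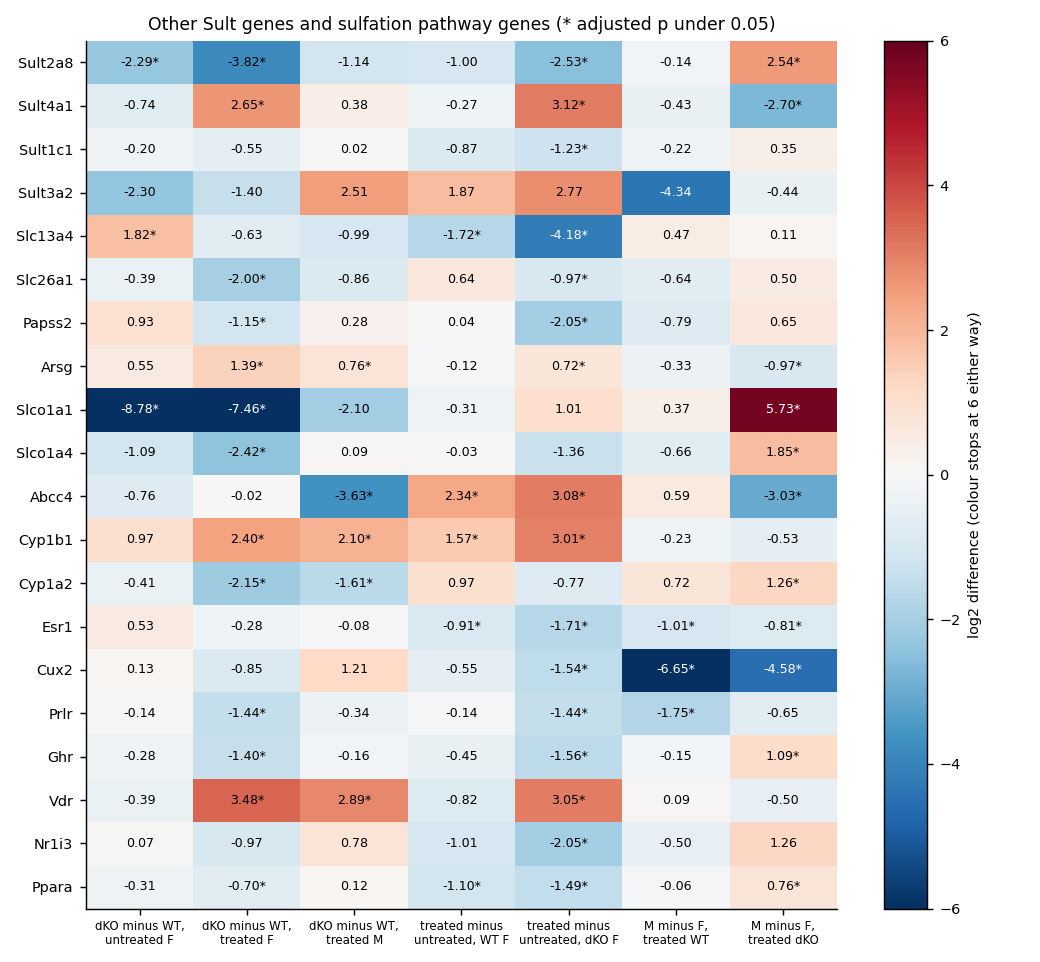
Log2 differences of 20 other Sult genes and sulfation pathway genes (rows) in 7 comparisons (columns), each cell printed with its fitted value and an asterisk where limma's adjusted p was under 0.05. Red is higher and blue lower in the first-named group. Where a group was not well above background, as for Slco1a1, Cux2 and Vdr, the fitted value is no measured size. Slco1a1 is strongly lower with Foxa loss in untreated and treated females, and Cux2 lower in males of both genotypes.

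The authors' deposited table of fold changes covers the same comparisons. Over the 12 member probes and 7 comparisons, 81 of 84 of its values had the sign found here, and the 3 others lay near 0. The largest gap was 0.28 log2 units. For Sult1e1 the authors' deposited table gives 235.05-fold for Foxa loss in untreated females and 191.24-fold for treatment in WT females. For the dimmer Sult2a2 probe the authors' deposited table gives a signed fold of -10.4 for Foxa loss in untreated females, and 1.48 for the brighter one.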

How the data were processed

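Total RNA from 24 samples labelled liver tumour was amplified, labelled with Cy3 and hybridised to single-colour Agilent mouse arrays, per the labels' protocols, which mention liver samples and sorted cells without saying which sample is which. The deposited scanner files hold background-subtracted and detrended signal intensity from Feature Extraction 10.5.1.1, per the file headers (9.53 per the submitters' processing notes), not normalized between arrays. The authors' deposited series table holds signed fold changes per comparison, used here as a score to compare with, and its p-values were not used.

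Intensities were log2 transformed and the array's 75th percentile subtracted. Control spots and outlier-flagged spots (72 to 127 per array) were left out, and 0 spots of the array were saturated. Spots of a probe were averaged, and probes well above background on at least 4 arrays were kept (28048 of 41174). The brightest probe stood for a gene (19240 genes). limma 3.58.1 in R 4.3.3 fitted the 6 group means over all 24 arrays, with Benjamini-Hochberg adjustment per comparison and a threshold of 0.05. A member difference carries the SE of that fit and no test. A probe well above background on no array of a group is given as a bound, and where only some arrays measured it the text says how many: the bright mean against the higher of the array's lowest measured signal and the dim probe's own. The number of arrays limits the precision. The fit was tested on simulated data. Probe alignments used Biopython and figures matplotlib 3.10.9. The members and gene lists were chosen with earlier results of these data known. Named were all members, every other Sult gene, up to 2 genes with the largest rise and fall of each list and comparison, and the 5 genes most and least like Sult1e1 and most like Sult2a2 by Pearson r. Some genes that this rule names are not reported here.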

Additional observations from a re-analysis of the deposited data

Results flagged for a closer look

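Of 114 groups of 4 arrays, 9 held 1 array that lay far from the other 3, where chance marks about 1 in 20 groups. In treated WT females replicate 3 was low on the brighter probes of both Sult2a genes, at 6.15 for Sult2a2 and 2.17 for Sult2a4. In untreated dKO females replicate 2 read 3.57 on the dimmer Sult2a4 probe, and in treated WT males replicate 1 read 0.26 for Sult3a1. In treated dKO males replicate 3 stood apart for 2 members, at 3.31 for Sult1c2 and 1.95 for Sult5a1. The other 3 were near background: -6.76 on the dimmer Sult4a1 probe in treated WT female replicate 4, and -8.10 and -5.18 for Sult6b1 in untreated WT female replicate 2 and treated dKO female replicate 1.

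Some differences pointed one way in one setting and the other way in another, with no test made of the change in direction. Foxa loss went with lower values in treated females and higher ones in treated males for Sult3a1 (-2.18 and 1.52) and Sult5a1 (-2.0 and 1.75). With array position as a term the Sult3a1 values were -5.15 and -1.31, so that the directions were alike. For Sult5a1 it was 1.35 in untreated females. For Sult4a1 it was -0.74 in untreated and 2.65 in treated females. Treatment gave 1.25 in WT and -2.10 in dKO females for Sult5a1, and -0.27 and 3.12 for Sult4a1. Without treated dKO female replicate 2 the treated Sult5a1 values were -0.71 for genotype and -0.81 for treatment, and the Sult3a1 genotype value was -0.94.

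The sex difference of treated mice was negative in WT and positive in dKO mice for 6 member probes. It was -4.74 and 0.39 on the brighter Sult2a2 probe and -5.40 and 0.25 on the dimmer Sult2a4 probe. Sult3a1 gave -3.20 and 0.50, and Sult5a1 -2.05 and 1.70. Sult1d1 gave -0.33 and 1.32, and Sult1c2 -0.25 and 0.09. The dKO values rest on a group that holds replicate 2, without which 4 of the 6 were negative: Sult2a2 was -0.60, the dimmer Sult2a4 probe -0.78, Sult3a1 -0.73 and Sult1c2 -0.02. Sult5a1 was then 0.41 and Sult1d1 0.57.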

How the results depend on the processing

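The 63 member differences were computed again under each alternative. The Sult1e1 differences in untreated females and with treatment in WT females kept their size, at 6.94 for the latter with normexp background correction. Leaving out 1 array at a time gave 7.67 to 8.18 and 7.36 to 7.87 for these, -1.21 to 0.43 and -0.72 to -0.31 for genotype in treated females and males, -1.52 to 0.12 for treatment in dKO females, and -0.47 to -0.05 and -1.21 to 0.43 for sex in WT and dKO mice. Of the differences whose groups did not overlap, Sult2a2 turned over in untreated females, from 0.43 to -1.50 with the mean of its probes and -3.44 with the dimmer probe, and Sult1c2 in treated males, to 0.075 with array position as a covariate. Some that overlapped also changed direction, among them Sult3a1 in treated males, from 1.52 to -1.31 with array position, and Sult1b1 with treatment in WT females, from -0.19 to 0.04 with slide as a fixed block. Among pathway genes Sult2b1 (-0.53) and Arsi (-0.15) turned over in treated females with normexp, and Arsk with the mean of its probes in treated males (0.11) and for sex in dKO mice (0.41).

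The counts of all genes called moved more, from 1886, 5729, 4871, 3308, 7281, 1181 and 3962 in the order of genotype (untreated females, females given treatment, males), treatment (WT, dKO) and sex (WT, dKO). With array position they were 982, 22, 141, 1993, 292, 486 and 1281, and pathway calls in the last 6 fell to 2, 2, 7, 6, 2 and 10. Normexp gave 735 (untreated), 2573 (treated males), 1885 (treatment in WT), 514 and 2268 (sex). Slide as a fixed block gave 1196 (untreated) and 18 pathway calls for sex in dKO mice. With only the groups compared, 2831 genes were called in untreated and 2095 in treated females, 4356 for treatment and 1144 for sex in dKO mice, and 16, 12, 24, 11 (sex in WT) and 10 (sex in dKO) pathway genes. Leaving out both arrays that stood apart, an alternative chosen after seeing the data, gave 1838 and 2499 genes for sex in WT and dKO mice, and 18, 21 and 11 pathway genes for untreated genotype, treatment in WT and sex in WT.

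Leaving out 1 array at a time gave, in the order above, 1142 to 1786, 3956 to 7270, 3882 to 4715, 1965 to 3025, 5618 to 8420, 706 to 1137 and 2347 to 6078 genes, and 5 to 9, 23 to 40, 14 to 20, 8 to 11, 34 to 43, 5 to 7 and 19 to 34 pathway genes. The arrays behind shifts of over 1.5 times were untreated WT female replicate 1 (1196) and dKO female replicate 4 (1142, with 5 pathway genes), treated WT female replicate 3 (1965, treatment), treated WT male replicate 4 (706) and WT female replicates 1 (734) and 4 (728) for sex in WT, and treated dKO female replicates 2 (2380), 3 (6078) and 4 (2347) for sex in dKO. Replicate numbers did not pair the samples: 10 of 60 same-numbered pairs had a correlation over 0.1, and 6 of 24 arrays correlated best with their own number. A replicate block gave 1622, 5366, 4636, 3049, 7075, 1045 and 3614 genes and 8, 28, 18, 12, 42, 5 and 28 pathway genes. Dim probes limit Sult2b1, Sult6b1, the dimmer Sult4a1 probe and Foxa1 in dKO arrays, where signals lay at background.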
